A study of Mus musculus with 14 samples.

Results

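Rab GTPases are the proteins that give each membrane compartment of a cell its identity, and the genes that encode them were followed here in macrophages of a mouse brain tumour. The members were all mm10 protein-coding genes whose symbol is Rab followed by a number, with or without 1 letter, leaving out genes named for interacting proteins, exchange factors and GTPase-activating proteins. This gave 59 of 21887 protein-coding genes (autosomes and both sex chromosomes). The mark measured was acetylation of histone H3 at lysine 27 (H3K27ac), found at active promoters and enhancers, by CUT&Tag, where adapters are inserted into DNA near an antibody by a transposase tethered to it. Flow cytometry was used to isolate CD11b+ cells from orthotopic T387 xenografts, a human glioblastoma grown in the brains of NSG mice, which are immunodeficient and have no mature T, B or NK cells. All mice carried the xenograft and received either pracinostat, an inhibitor of histone deacetylases, at 30 mg/kg by mouth, or the DMSO vehicle, on 4 days in each of 3 weeks, the first dose falling on day 7 of tumour growth. The text on drug preparation gives 3 mg/kg, so the labels conflict on the dose. The H3K27ac antibody was used on 3 DMSO and 4 pracinostat samples, and non-specific IgG, the background of the assay, likewise on 3 and 4. The labels call them biological replicates without saying whether each came from 1 mouse, so the spread behind each p-value is that between libraries. CD11b is carried by microglia, monocyte-derived macrophages and neutrophils alike, so the sort does not separate these cells.

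A Rab protein cycles between a GTP-bound form on a membrane and a GDP-bound form in the cytosol, and in its GTP form recruits effectors that move, tether and fuse vesicles. In a macrophage that takes up a particle, Rab5 proteins mark the early endosome and the new phagosome, Rab7 replaces them as the compartment matures and meets lysosomes, Rab4 and Rab11 proteins return membrane and receptors to the surface, and Rab3, Rab8, Rab27 and Rab37 proteins serve secretion. Rab1, Rab2 and Rab6 proteins work between the endoplasmic reticulum and the Golgi.

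Each library had 1 deposited list of peak summits, each the base where a peak is tallest, with a −log10 significance value. For each gene the highest value within 1 kb of either gene end was taken and ranked within its library against all genes with a summit there in at least 3 of the 7 H3K27ac lists (13494 genes). A percentile of 100 is the highest value of a library, and a gene without a summit shares the lowest rank with all other unmarked genes. A percentile is a relative measure: acetylation that moved equally at every site would leave it as it was. The H3K27ac lists held 208401 to 291042 summits, except that of DMSO replicate 2 with 53503. The labels give a sequencing target but no read count per library. In DMSO replicate 2, 11 of the 50 ranked Rab genes were unmarked (0 to 2 in the other 6 libraries), and unmarked genes stood at a percentile of 19.0 there against 3.42 to 5.61 elsewhere, while genes at its lowest value, 4 Rab genes among them, stood at 47.3. The IgG lists held 2194 to 18517 summits. Of 10 macrophage markers (Csf1r and Itgam among them) all 10 were ranked, with summed percentiles of 596 to 700.6 in DMSO and 701.4 to 838 in pracinostat libraries. Of 8 neutrophil markers (Cxcr2 and S100a8 among them) 7 were ranked, with sums of 248.96 to 333 and 130 to 213. Of 6 lymphocyte markers 5 were ranked, 0 of them marked in every list, with sums of 94.9 to 151 and 101 to 174. Of 5 microglia markers all 5 were ranked, with sums of 243 to 273 in DMSO and 293 to 351 in pracinostat libraries. Of 6 neuron and astrocyte markers 1 was ranked, 0 were marked in every list, and Snap25 and Syt1 were at 0 in every list. Of 4 oligodendrocyte markers 2 were ranked and of 4 endothelial markers 3, with 1 of each list marked in all 7 H3K27ac lists.

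The 250 bases before the annotated start of 8 Rab genes show the kind of promoter at which the mark was read. Rab14, Rab5a, Rab7, Rab27a and Rab31 are the marked members on which the results below turn, Rab21 is a member whose start lies away from its outermost gene end, and Rab9b and Rab39b are members with no summit at either end in any list. Sequences are from RefSeq (GRCm38.p6, the assembly that mm10 names), written in the direction of transcription, and capitals mark every match, on either strand, to 6 short motifs. These were the GC box with the letters GGGCGG, the E-box with CACGTG, the CCAAT box, whose name gives its letters, the PU.1-type ETS element with GAGGAA, the AP-1 element with TGANTCA and the cyclic AMP response element with TGACGTCA. These letters do not overlap in the sequences shown.
Rab14 (chr2:35201121-35201370, minus strand): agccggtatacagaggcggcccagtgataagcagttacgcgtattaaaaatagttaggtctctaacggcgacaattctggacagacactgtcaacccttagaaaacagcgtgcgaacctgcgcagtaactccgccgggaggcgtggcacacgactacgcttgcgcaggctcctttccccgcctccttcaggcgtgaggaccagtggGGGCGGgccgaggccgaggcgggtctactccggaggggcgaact
Rab5a (chr17:53478984-53479233, plus strand): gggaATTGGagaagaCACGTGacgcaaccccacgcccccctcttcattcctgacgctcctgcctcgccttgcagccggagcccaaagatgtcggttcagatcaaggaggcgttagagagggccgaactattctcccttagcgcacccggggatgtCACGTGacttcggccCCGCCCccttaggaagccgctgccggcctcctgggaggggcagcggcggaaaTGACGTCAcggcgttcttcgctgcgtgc
Rab7 (chr6:88045271-88045520, minus strand): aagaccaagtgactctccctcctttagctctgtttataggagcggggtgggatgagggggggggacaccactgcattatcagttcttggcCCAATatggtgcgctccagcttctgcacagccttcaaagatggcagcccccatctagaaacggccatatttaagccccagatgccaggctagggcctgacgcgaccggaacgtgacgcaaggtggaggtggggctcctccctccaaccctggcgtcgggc
Rab27a (chr9:73044560-73044809, plus strand): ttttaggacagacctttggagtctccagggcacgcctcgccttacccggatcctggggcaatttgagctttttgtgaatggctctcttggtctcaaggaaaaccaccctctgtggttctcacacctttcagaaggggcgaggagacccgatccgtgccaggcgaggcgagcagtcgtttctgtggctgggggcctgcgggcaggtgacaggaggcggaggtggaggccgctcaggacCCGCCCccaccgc
Rab31 (chr17:65772753-65773002, minus strand): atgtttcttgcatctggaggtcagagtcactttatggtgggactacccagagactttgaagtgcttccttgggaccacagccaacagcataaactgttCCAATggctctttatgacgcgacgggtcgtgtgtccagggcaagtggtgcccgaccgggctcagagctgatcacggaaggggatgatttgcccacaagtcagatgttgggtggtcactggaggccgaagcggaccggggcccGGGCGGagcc
Rab21 (chr10:115315592-115315841, minus strand): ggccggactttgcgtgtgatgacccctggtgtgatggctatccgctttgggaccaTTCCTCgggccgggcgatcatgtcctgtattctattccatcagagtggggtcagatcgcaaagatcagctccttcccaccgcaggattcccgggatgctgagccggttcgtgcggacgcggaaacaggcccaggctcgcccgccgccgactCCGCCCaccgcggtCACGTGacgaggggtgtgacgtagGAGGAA
Rab9b (chrX:136868557-136868806, minus strand): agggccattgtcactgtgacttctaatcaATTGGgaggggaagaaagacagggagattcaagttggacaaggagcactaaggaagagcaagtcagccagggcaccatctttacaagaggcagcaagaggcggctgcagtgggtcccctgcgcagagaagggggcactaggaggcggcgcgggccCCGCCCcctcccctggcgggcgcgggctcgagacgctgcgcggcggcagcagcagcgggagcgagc
Rab39b (chrX:75578232-75578481, minus strand): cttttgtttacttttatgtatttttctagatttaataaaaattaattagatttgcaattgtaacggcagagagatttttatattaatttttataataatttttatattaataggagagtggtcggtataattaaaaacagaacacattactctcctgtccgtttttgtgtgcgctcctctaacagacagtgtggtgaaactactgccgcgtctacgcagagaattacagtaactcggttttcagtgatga

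The Rab5a stretch holds 2 E-boxes, 1 cyclic AMP response element, 1 GC box and 1 CCAAT box. Rab21 holds 2 PU.1-type elements, 1 E-box and 1 GC box, while Rab39b, the most AT-rich of the 8 (31.6% G and C), holds 0 of the 6. The promoter table had 48 of the 59 members. A GC box was found in 33 of these 48 (68.8%) and in 42.7% of the 17492 protein-coding promoters of the same length, a PU.1-type element in 6 (12.5%, all promoters 22.1%), a CCAAT box in 22 (45.8%, all 36.5%), an E-box in 4 (8.33%, all 6.65%), a cyclic AMP response element in 2 (4.17%, all 1.98%) and an AP-1 element in 1 (2.08%, all 6.18%). The 250 bases held a median of 16 CpG dinucleotides in Rab genes and 10 in all genes. Among Rab genes the median was 18 for the 33 with a summit in all 7 lists and 7.5 for the 6 with a summit in fewer than 3. In all genes the corresponding medians were 17 (6252 genes) and 3 (6659 genes). The marked and unmarked members therefore differed in the same direction as genes at large. Rab9b is an exception in the list above, with 16 CpGs, a GC box and no summit.

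Most Rab genes were marked. A summit lay at an end of 80.2 ± 10.9% of the 59 Rab genes in DMSO libraries (SD, n = 3) and 84.7 ± 2.77% in pracinostat libraries (n = 4), where all protein-coding genes had 52.6 ± 12.1% and 59.6 ± 1.45%. In counts, 50, 40 and 52 Rab genes were marked in DMSO replicates 1 to 3 and 48, 50, 50 and 52 in pracinostat replicates 1 to 4. With lists cut to their 30000 highest summits the shares were 61.6 ± 4.27% and 63.1 ± 5.43% of Rab genes, and 32.0 ± 1.54% and 32.1 ± 2.31% of all genes. Windows moved by 100 kb held a summit for 42.9 ± 22.8% and 55.9 ± 3.09% of Rab genes, against 30.0 ± 15.01% and 37.5 ± 2.77% of all genes. A summit was present in all 7 lists for 39 Rab genes (66.1%, all genes 34.7%), in at least 3 lists for 50 (84.7%, all genes 61.7%) and in 0 lists for 3 (5.08%, all genes 23.1%). In the IgG lists 3, 1 and 1 Rab genes (DMSO) and 0, 0, 3 and 0 (pracinostat) had a summit. These belonged to 7 genes (11.9%, all genes 8.68%), namely Rab1b in 2 lists and Rab5a, Rab9, Rab22a, Rab25, Rab31 and Rab40c in 1 list each. At Rab25, Rab22a and Rab5a the IgG summit lay at the 3′ end.

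The 9 members not ranked are mostly known from other cell types. Rab27b, Rab39b and Rab9b had no summit in any of the 7 lists. Rab3c, Rab15 and Rab36 had one in 1 list and Rab3b, Rab17 and Rab38 in 2. Rab3b, Rab3c, Rab15 and Rab39b are best known from neurons, Rab17 from epithelia and Rab38 from pigment cells. Among genes sharing a number, the values within a library could be set against each other. Rab27a was above Rab27b, Rab9 above Rab9b and Rab39 above Rab39b in 7 of 7 lists, since the second of each pair was never marked. Rab3a and Rab3d were each above Rab3b and Rab3c in 7 of 7.

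**Figure D1:**
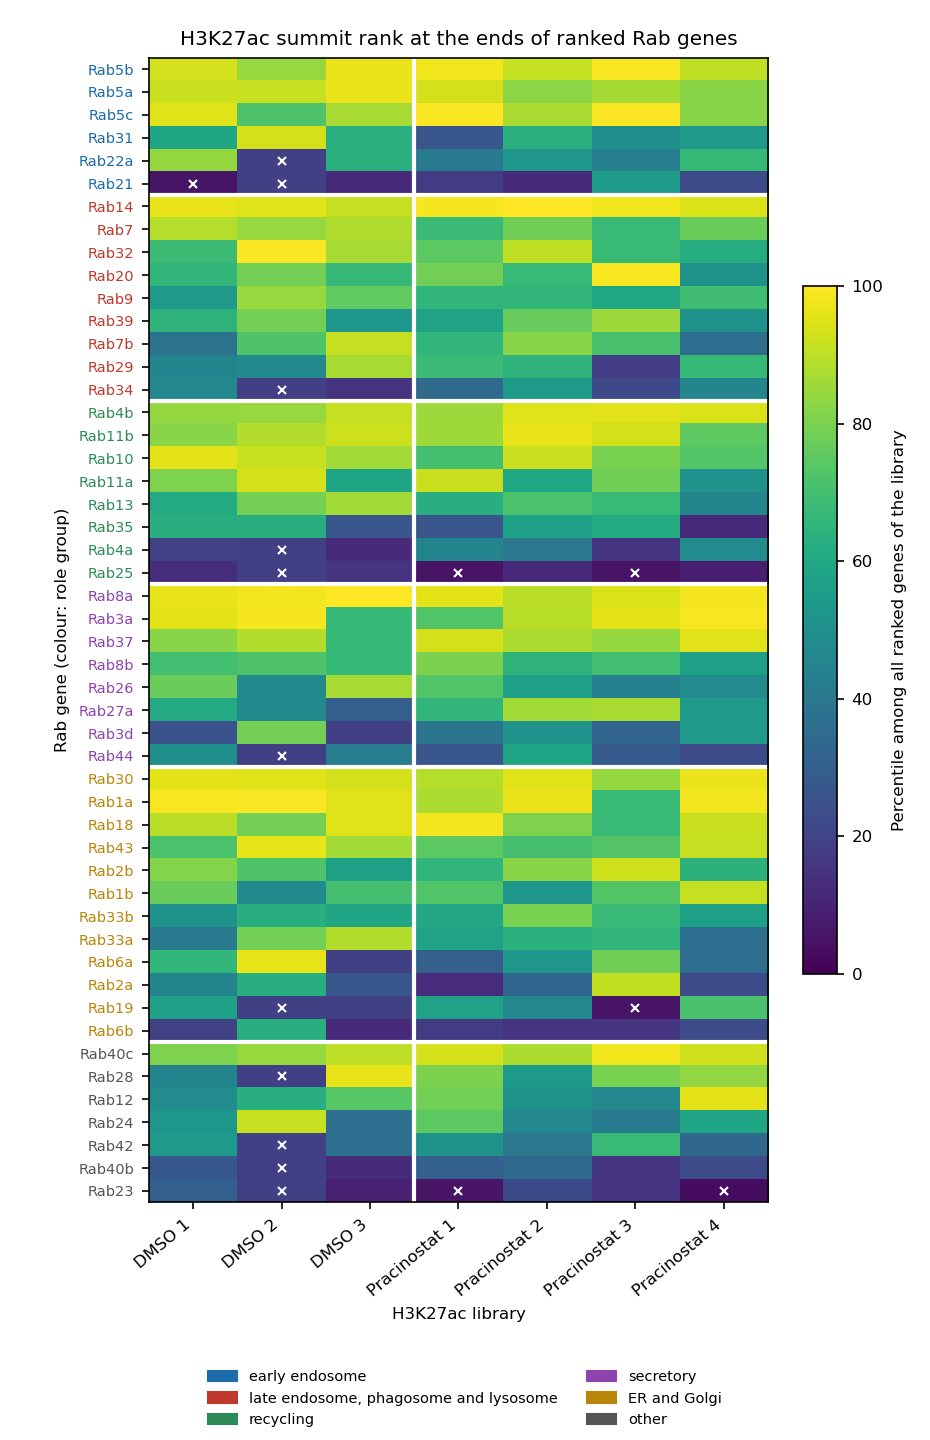
Percentile of the highest H3K27ac summit at the ends of the 50 ranked Rab genes (rows, grouped and coloured by role, ordered by mean) in the 3 DMSO and 4 pracinostat libraries (columns). Crosses mark a library without a summit, where the colour is that of the shared lowest rank; 11 of the crosses fall in DMSO replicate 2 and 0 to 2 in each other library.

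The median of the 50 ranked members' mean percentiles was 66.2, where that of all ranked genes was 51.2. A mean of at least 90 was reached by 6 members (12.0%, all ranked genes 4.28%) and a mean of at least 75 by 17 (34.0%, all 20.4%). In order these 6 were Rab14, Rab8a, Rab5b, Rab30, Rab1a and Rab4b.

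Of the early endosome genes, the 3 Rab5 genes stood high in every library. Rab5b (chromosome 10, 128677170 to 128696284) had percentiles of 93.1, 84.6 and 97.2 in DMSO replicates 1 to 3 and 97.9, 91.3, 98.9 and 90.3 in pracinostat replicates 1 to 4. Rab5a (chromosome 17, 53479234 to 53507678), whose promoter with its E-boxes is printed above, had 92.0, 91.5 and 97.2, and 93.4, 82.8, 86.4 and 82.3. Rab5c (chromosome 11, 100715003 to 100738215) had 95.2, 72.3 and 87.1, and 99.6, 87.1, 99.3 and 82.3. The 3 genes encode near-interchangeable forms of the GTPase that recruits early endosome tethers, and their order changed from library to library: Rab5b was above Rab5a in 5 of 7 lists and above Rab5c in 4. The summit at Rab5b also lay within 1 kb of an end of Pmel in all 7 lists, so those 2 genes cannot be told apart there. Rab22a, a relative that acts in endosome sorting, was lower and spread widely, from 19.0 in DMSO replicate 2, where it was unmarked, to 84.1 in DMSO replicate 1. Rab31, which works between the Golgi and endosomes and is implicated in phagosome formation, ranged from 26.7 to 93.6.

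Rab21, a GTPase of early endosomes and integrin traffic, had the lowest mean of the group at 20.5, and this value depends on where its start is placed. The outermost end of the gene lies 1828 bp from the start in the promoter table, the one printed above, so windows of 1 kb at the outer end miss that start. Within 1 kb of annotated starts, an alternative chosen after the data were seen (10153 genes ranked, 43 of them Rab genes), Rab21 had percentiles of 64.8, 42.2 and 92.9 in DMSO and 65.9, 66.2, 65.4 and 92.3 in pracinostat libraries. Its mean went from 20.5 to 69.9. The opposite held for Rab33a, a Golgi GTPase whose annotated start lies 5622 bp from the outer gene end: its mean was 61.8 at gene ends, where the summit was also within 1 kb of an end of Aifm1 in 7 of 7 lists, and 15.9 at its annotated start. Of the 48 members with a listed start, 3 had it more than 1 kb from the outer end, the third being the unranked Rab17.

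Among genes of the late endosome, phagosome and lysosome, Rab14, a GTPase of phagosomes and of traffic between the Golgi and endosomes, shared the highest mean of the Rab genes with Rab8a (96.2 each), which was above it in 4 of 7 lists. Rab14 (chromosome 2, 35180205 to 35201120) had 96.5, 95.1 and 91.2 in DMSO and 98.5, 99.8, 97.9 and 94.4 in pracinostat libraries. Rab7 (chromosome 6, 87999106 to 88045270), the main GTPase of late endosomes, had 89.0, 84.6 and 87.9, and 68.1, 78.3, 67.8 and 77.3. Every DMSO library was above every pracinostat library for Rab7, a difference that is tested below. Rab32, which acts on lysosome-related organelles and in the defence against intracellular bacteria, had 68.6, 99.3 and 87.1, and 74.9, 90.6, 67.8 and 61.9. Rab20, a GTPase of maturing phagosomes, had 66.4, 79.2 and 67.1, and 78.7, 67.3, 99.2 and 51.2. Rab7b, which links late endosomes to the Golgi, covered 36.2 to 91.2 with overlapping groups (67.2 ± 26.9 with DMSO, n = 3, and 63.9 ± 19.6 with pracinostat, n = 4). The remaining ranked genes were Rab9, which returns receptors from late endosomes to the Golgi, at a mean of 67.8 over the 7 lists, Rab39 at 66.8, Rab29 at 56.8 and Rab34 at 33.9.

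Of the recycling genes, Rab4b, Rab11b and Rab10 were the highest, with means of 90.01, 87.7 and 84.2, and Rab25 and Rab4a the lowest, with 11.1 and 28.4. Rab11a, the GTPase of the recycling endosome, ranged from 51.2 to 93.6 (77.8 ± 17.3 with DMSO, n = 3, and 70.4 ± 18.4 with pracinostat, n = 4). Rab4b was above Rab4a in 7 of 7 lists, although both serve rapid recycling from early endosomes. Ends of Egln2 and Mia lay within 2 kb of an end of Rab4b, while no other gene end lay so close to Rab4a. Rab25, an epithelial relative of Rab11, was marked in 4 of 7 lists. Rab13 and Rab35 had means of 67.8 and 44.2. The summit at Rab13 was within 1 kb of an end of the ribosomal protein gene Rps27 in all 7 lists.

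Of the secretory genes, Rab8a (chromosome 8, 72161200 to 72181366), which directs vesicles to the plasma membrane, had 96.6, 98.4 and 99.8 in DMSO and 95.96, 89.5, 94.6 and 98.5 in pracinostat libraries. Its relative Rab8b was lower in 7 of 7 lists, with a mean of 68.7. Rab3a, known best from synaptic vesicles, had a mean of 88.4 and was above Rab3d, the member known from secretory granules outside neurons, in 7 of 7 lists (mean 42.8). The highest summit at Rab3a lay 44 to 135 bp before its 5′ end in the 7 lists and was within 1 kb of no other gene end. Rab37, a GTPase of secretory granules in immune cells, had a mean of 85.5, but its summit also lay within 1 kb of an end of Slc9a3r1 in all 7 lists. Rab27a, which docks secretory lysosomes and exosomes at the plasma membrane, had 61.2, 47.3 and 30.0 in DMSO and 65.7, 86.1, 87.5 and 54.0 in pracinostat libraries. The 2 groups overlapped there. Rab26 had a mean of 62.0 and Rab44, a large Rab of blood cells, 35.5.

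Between the endoplasmic reticulum and the Golgi, Rab30, Rab1a and Rab18 had the highest means (92.8, 92.1 and 86.1) and Rab6b and Rab19 the lowest (23.5 and 39.4). Rab1a, which drives transport from the endoplasmic reticulum to the Golgi, had 99.1, 99.3 and 95.5 in DMSO and 87.7, 97.0, 67.8 and 98.3 in pracinostat libraries. Rab1a was above Rab1b in 6 of 7 lists, Rab2b above Rab2a in 7 and Rab6a above Rab6b, the form known from brain, in 7. Another gene end lay within 2 kb of an end of Rab1a, Rab1b, Rab2b (Tox4) and Rab6a (Mrpl48), but not of Rab2a or Rab6b. The part of these neighbours in the orders was not tested. At Rab6b the highest summit lay at the 3′ end in 6 of 7 lists, and over the alternatives its mean ran from 6.28 to 60.3. Outside these groups, Rab40c had a mean of 89.5, and Rab23, which acts at the cilium, and Rab40b had 14.8 and 23.1. The value of Rab40b depends on the window: its highest summit lay at the 3′ end in 4 of the 6 lists that marked it, and its mean was 11.9 at annotated starts and 90.2 with windows of 2.5 kb. Rab28, Rab12, Rab24 and Rab42 stood between, at 65.6, 65.3, 57.5 and 43.1.

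As groups read at gene ends, none of the early endosome, phagosome and secretory groups was above another of them in all 7 libraries. Ranked early endosome genes (6 of 6) had a mean percentile of 68.3 ± 4.33 with DMSO (SD, n = 3) and 66.6 ± 3.98 with pracinostat (n = 4). Late endosome, phagosome and lysosome genes (9 of 11) had 69.8 ± 5.66 and 67.7 ± 5.93, secretory genes (8 of 11) 66.2 ± 5.42 and 68.6 ± 3.10, and genes of the endoplasmic reticulum and Golgi (12 of 14) 66.4 ± 6.22 and 63.7 ± 2.23. Recycling genes (8 of 10) stood at 62.7 ± 4.33 and 59.5 ± 6.16. Early endosome genes were above the phagosome group in 3 of 7 libraries and above the secretory group in 4. The early endosome mean includes Rab21 at 20.5, whose annotated start these windows miss. At that start the mean of Rab21 was 69.9, so the level and order of the early endosome group depend on the window. The endoplasmic reticulum and Golgi mean includes Rab33a at 61.8, whose annotated start these windows also miss. At that start the mean of Rab33a was 15.9, so the level of this group depends on the window too. Recycling genes were below the phagosome group and below the secretory group in 7 of 7 libraries. Phagosome minus recycling was 7.72 percentile points in the mean and 0.943 at the closest, and recycling minus secretory was −6.71 and −1.31. Only 8 recycling genes enter, among them Rab25 and Rab4a. Role groups were assigned by hand, although some members serve several compartments. Rab14, the highest of the phagosome group at 96.2, also acts in traffic between the Golgi and endosomes. Other assignments were not tested. The remaining 7 genes had 48.0 ± 2.90 and 53.8 ± 4.85, and were below the early endosome, phagosome, secretory and Golgi groups in 7 of 7 libraries. Genes within a group are not replicates, so these orders carry no test.

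**Figure D2:**
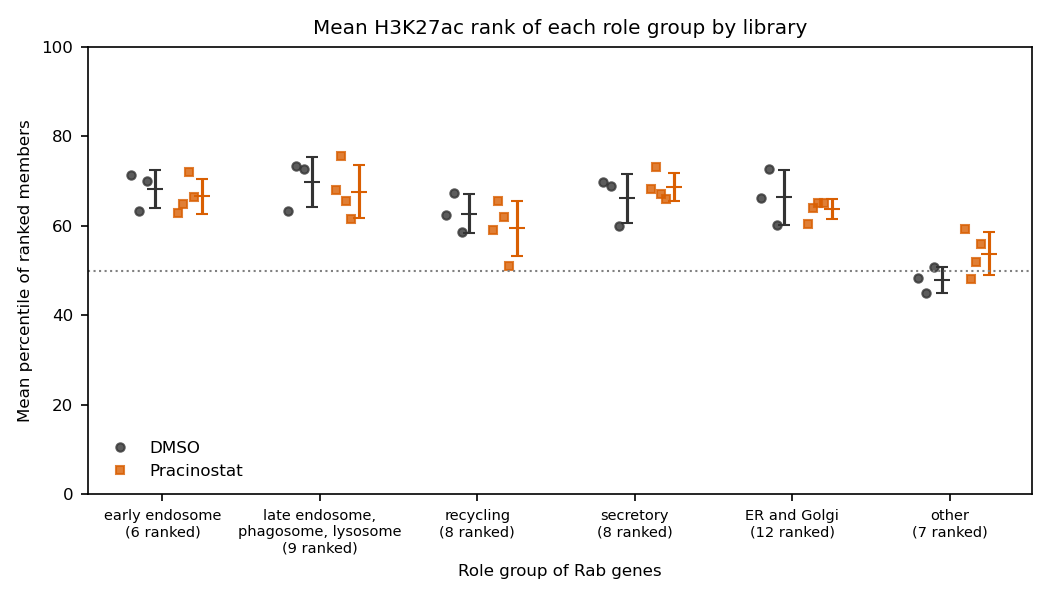
Mean percentile of the ranked members of each role group (x axis) in every H3K27ac library (points; DMSO circles, n = 3, pracinostat squares, n = 4), with the mean and SD beside them; the dotted line is the middle rank of all genes. The groups other than the last lie between 51.1 and 75.6 in every library, and in each the DMSO and pracinostat points overlap.

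Of the gene ends, the 5′ end held the highest summit in most cases. Summits between the ends were not part of this comparison, and no share over all genes is given beside it. Strand was known for 42 of the 50 ranked members, and in 279 pairs of such a member and a list that marked it the highest summit was at the 5′ end in 259 (92.8%). At the 5′ end its median position was 21 bp before the gene end, and 84.9% lay within 500 bp. In 31 of the 42 genes the highest summit was at the 5′ end in every list that marked the gene. The promoters printed above therefore lie beside the summits read at Rab14 (median 55 bp into the gene), Rab7 (80 bp), Rab27a (11 bp) and Rab31 (44 bp), and at Rab5a the median was −230 bp, before the start and inside the printed stretch. At Rab5a, Rab7 and Rab27a the position varied between lists, and some lists had the highest summit over 500 bp from the start. At Rab31 the highest summit was at the 3′ end in 1 of 7 lists, that of pracinostat replicate 1. An end of another protein-coding gene lay within 2 kb of an end of 21 ranked Rab genes, whose median of mean percentiles was 73.6 against 65.3 for the 29 without one.

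**Figure D3:**
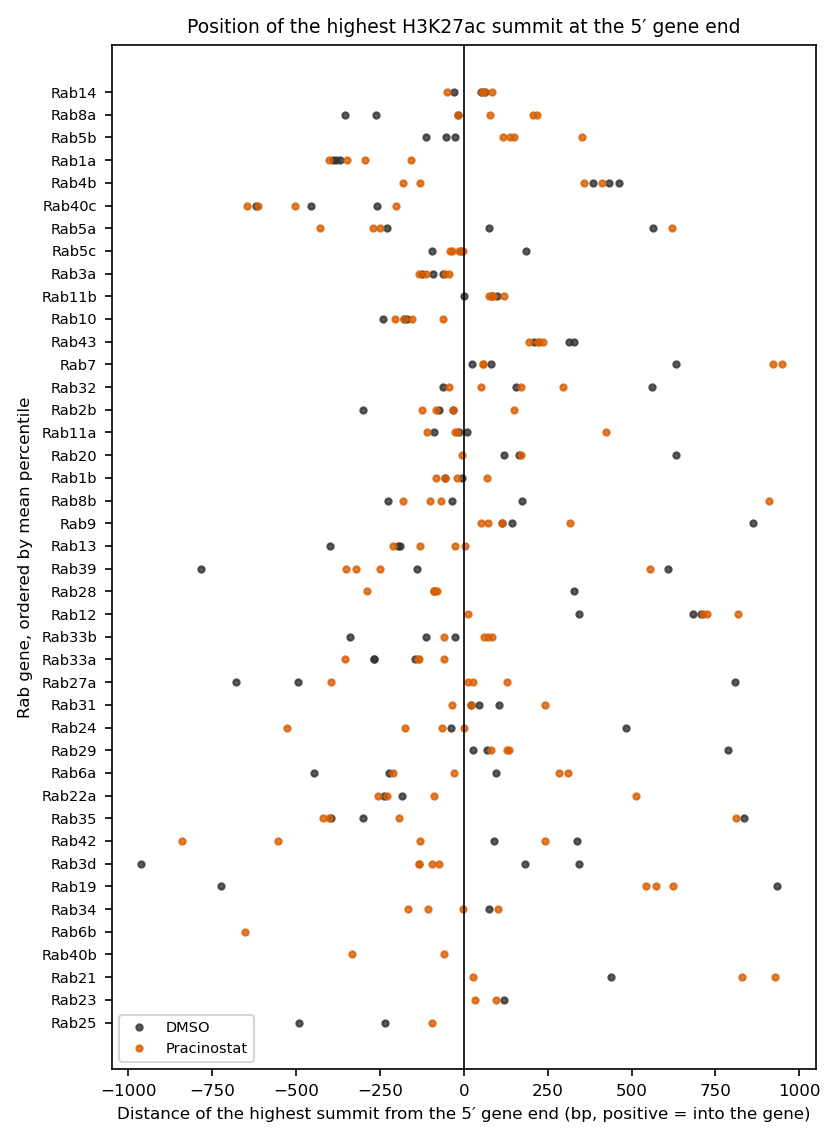
Distance in bp of the highest H3K27ac summit from the 5′ gene end (x axis, positive into the gene) for the 42 ranked Rab genes with known strand (rows, highest mean percentile at the top), 1 point per library that had its highest summit there. Most points lie within 500 bp of 0. Rab6b, Rab40b, Rab21 and Rab23, near the bottom, have between 1 and 4 points.

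Across whole genes, with 1 kb on both sides, Rab genes held a median of 8 summits and all protein-coding genes 4, with median gene lengths of 23.2 and 17.2 kb. Per 10 kb the medians were 3.67 and 1.44. Rab31 (121 kb, chromosome 17, 65651726 to 65772752) held the most, with 70, 19 and 73 summits in DMSO and 66, 73, 78 and 85 in pracinostat libraries, a median of 5.93 per 10 kb. Rab8b (76.1 kb) had 51, 14 and 51, and 58, 54, 61 and 75. Per length the densest was Rab20 (25.3 kb, chromosome 8, 11453390 to 11478640), with 26, 13 and 27 summits in DMSO and 40, 41, 36 and 40 in pracinostat libraries, a median of 13.2 per 10 kb. The long genes Rab27b (163 kb), Rab38 (61.3 kb) and Rab3c (227 kb), none of them ranked by their ends, had medians of 1, 0 and 9 summits. Every pracinostat library had more summits than every DMSO library for 7 of 58 Rab genes (12.1%), where the share over genes with any summit was 3.4%, and fewer for 0 (all genes 0.0323%). The 7 were Rab8b, Rab11b, Rab20, Rab33b, Rab34, Rab39 and Rab40c. Summit counts grow with the length of a list, and DMSO replicate 3 had the longest list and DMSO replicate 2 the shortest. Rab genes also held more summits than genes at large, and a gene with few summits has little room for its groups to separate. The shares are therefore not like for like. The part of list length and of summits per gene in this difference was not tested.

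**Figure D4:**
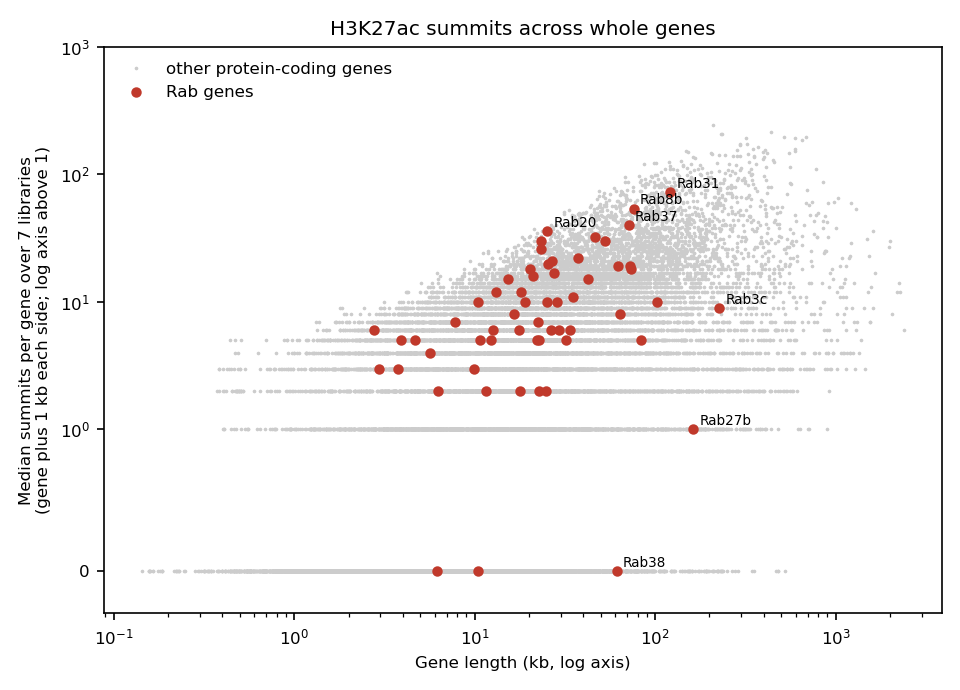
Median number of H3K27ac summits over the 7 libraries in each gene with 1 kb on both sides (y axis, logarithmic above 1) against gene length in kb (x axis, logarithmic), for Rab genes (red) and other protein-coding genes (grey). Rab31 with 73, Rab8b with 54, Rab37 with 40 and Rab20 with 36 lead the Rab genes, while the long genes Rab27b and Rab38 have 1 and 0.

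No Rab gene passed the test of pracinostat against DMSO. In limma on normal scores of the ranks, fitted over all 13494 genes, 0 of 50 Rab genes passed an adjusted p of 0.05, as did 0 genes in all (0%), and the smallest adjusted p of a Rab gene was 0.809. At an unadjusted p under 0.05 there was 1 Rab gene (2.00%, all genes 6.17%), 1 higher (all genes 2.74%) and 0 lower (all genes 3.42%). By estimate 22 Rab genes were higher and 28 lower (48.6% of all genes were higher), and the median difference was −0.0498 normal-score units against −0.0146 over all genes. A unit is 1 SD of a normal distribution without ties, and genes that share a rank narrow the spread within a library. The standard errors of single Rab genes were 0.346 to 0.458. Early endosome genes were split 3 higher and 3 lower, phagosome genes 4 and 5, recycling genes 3 and 5, secretory genes 3 and 5, Golgi genes 4 and 8, and the remaining genes 5 and 2. The shifts of the group means, pracinostat minus DMSO, were −1.67, −2.18, −3.29, 2.45, −2.70 and 5.79 percentile points in that order, and −4.14, −0.390, −1.03, 3.80, 0.421 and 4.26 without DMSO replicate 2. Beside these, the summed neutrophil markers were lower and the summed macrophage and microglia markers higher in every pracinostat library than in every DMSO library. For macrophage markers the groups all but touched, with a highest DMSO sum of 700.6 and a lowest pracinostat sum of 701.4. The part of these markers in the Rab values was not tested. In sorted bulk cells a changed mix of cells and a changed mark per cell cannot be told apart.

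Rab27a had the smallest p. Its percentile was 46.2 ± 15.6 with DMSO (n = 3) and 73.3 ± 16.3 with pracinostat (n = 4), higher by 0.786 ± 0.378 (SE) in normal scores (limma adjusted p = 0.809). Its unadjusted p was no longer under 0.05 without DMSO replicate 2 (difference 0.804) or without DMSO replicate 3 (0.576), and over the whole gene the difference was −0.0191. Rab31 was next, at 71.8 ± 19.0 and 48.5 ± 15.7 (−0.737 ± 0.381, limma adjusted p = 0.809), where DMSO replicate 2 at 93.6 was highest. Without that library the Rab31 difference was −0.324, and over the whole gene its difference was 0.383. By size of estimate the other lower genes were Rab1a (97.9 ± 2.12 and 87.7 ± 14.1), Rab32 (85.0 ± 15.4 and 73.8 ± 12.4), Rab8a (98.3 ± 1.59 and 94.6 ± 3.77), Rab10 (91.2 ± 4.79 and 79.0 ± 9.48) and Rab7. Of the genes with higher means there were Rab4a (16.9 ± 4.21 and 37.0 ± 15.2), Rab5c (84.9 ± 11.6 and 92.1 ± 8.74), Rab21 and Rab14 (94.3 ± 2.72 and 97.7 ± 2.33). Single libraries moved several of these differences by over 1.5 times. That of Rab32 was −0.666, and it was −0.120 without DMSO replicate 2 and −1.10 without DMSO replicate 1. That of Rab1a went from −0.756 to −0.441 without pracinostat replicate 3, and that of Rab14 from 0.566 to 0.329 without pracinostat replicate 2. That of Rab5c was 0.668, and it was 0.4001 without DMSO replicate 2, 0.385 without pracinostat replicate 1 and 0.440 without pracinostat replicate 3. For Rab21, whose annotated start these windows miss, the difference was 0.531 at gene ends and 0.113 at annotated starts, and at gene ends it was 0.343 without DMSO replicate 1 and 0.264 without pracinostat replicate 3. Rab1a, Rab8a and Rab14 lie close to the top of the scale, where a small step in percentile is a large one in normal scores.

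Rab7 and Rab25 were the only ranked Rab genes whose groups did not overlap, both lower with pracinostat, which is 2 of 50 (4.00%, all genes 6.67% in either direction). Lower without overlap were 3.79% of all genes, and 0 Rab genes were higher without overlap (all genes 2.88%). Rab7 had 87.2 ± 2.29 with DMSO (n = 3) and 72.9 ± 5.69 with pracinostat (n = 4), which is −0.523 ± 0.386 (SE) in normal scores (limma adjusted p = 0.877). DMSO replicate 2 held the lowest of the 3 DMSO values, so leaving it out widens the gap. Rab25 had 15.7 ± 3.03 and 7.70 ± 3.21 (limma adjusted p = 0.888). For Rab25 the values are those of unmarked genes in DMSO replicate 2 and in pracinostat replicates 1 and 3, so that separation rests partly on how unmarked genes are ranked.

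**Figure D5:**
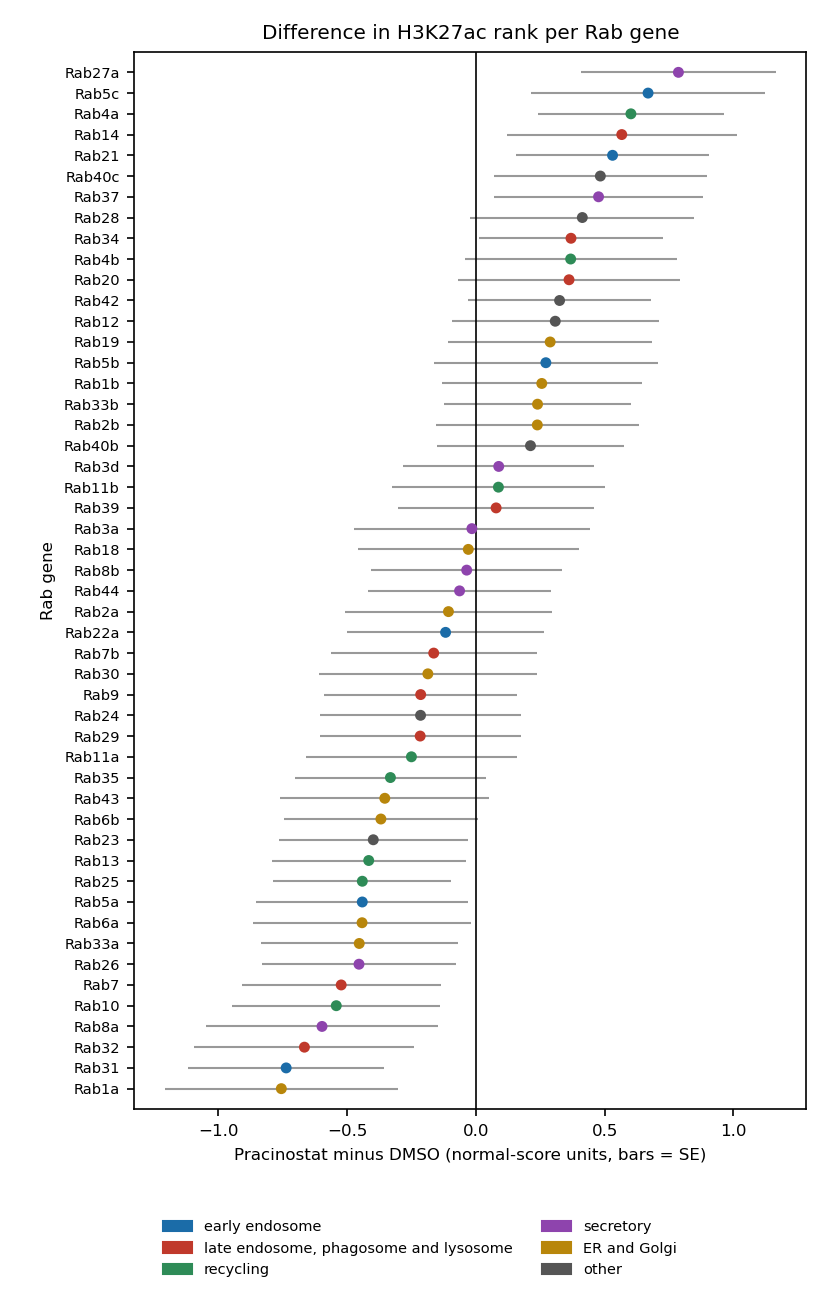
Difference in H3K27ac rank, pracinostat minus DMSO, in normal-score units (x axis) for each of the 50 ranked Rab genes (rows, ordered by difference, coloured by role group), with bars of 1 standard error from limma (3 DMSO and 4 pracinostat libraries). Values run from −0.756 at Rab1a to 0.786 at Rab27a, and members of each role group lie on both sides of 0.

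No gene of the proteins that act on Rabs passed the test either. Of 107 listed genes for prenylation and membrane cycling, exchange factors, GTPase-activating proteins and effectors, 106 were in the gene table and 98 were ranked, with a median mean percentile of 53.4. In limma 0 passed, and 3 had an unadjusted p under 0.05 (3.06%, all genes 6.17%), 2 higher and 1 lower. Usp6nl, a GTPase-activating protein that acts on Rab5, had 22.6, 19.0 and 12.0 in DMSO and 38.3, 56.0, 63.7 and 33.2 in pracinostat libraries (0.878 ± 0.350, limma adjusted p = 0.777). Appl1, an adaptor that binds Rab5 on early endosomes, had 32.2, 19.0 and 36.5, and 74.9, 67.3, 38.2 and 64.4 (0.860 ± 0.353, limma adjusted p = 0.777). In both genes every pracinostat library was above every DMSO library, and both were unmarked in DMSO replicate 2. Groups did not overlap for 9 of the 98 genes (9.18%, all genes 6.67%), 5 higher (all genes 2.88%) and 4 lower (all genes 3.79%). The other 3 higher were Rab11fip5, marked in all 7 lists, Rin1, unmarked in DMSO replicates 1 and 2, and Rabep1, unmarked in DMSO replicate 2. The 4 lower were Eea1, the Rab5 effector that tethers early endosomes (51.0 ± 4.24 with DMSO, n = 3, and 28.2 ± 7.38 with pracinostat, n = 4), the Rab11 effector Rab11fip2 (47.2 ± 0.429 and 26.4 ± 3.32), Tbc1d22b (61.0 ± 10.6 and 38.8 ± 6.39) and Sgsm1, which was marked in 3 of 7 lists. These were named after their values were seen. In DMSO replicate 2, Eea1 and Rab11fip2 stood at 47.3, the rank shared by all genes at the lowest value of that short list. Their separation and small SD with DMSO rest partly on that shared rank. The smallest p among the lower genes belonged to Tbc1d10c, a GTPase-activating protein of blood cells (62.2 ± 22.2 and 33.0 ± 8.16), and to Hps4, a subunit of the exchange factor for Rab32 and Rab38 (86.8 ± 15.6 and 65.6 ± 20.6). By estimate 22 of 33 ranked effector genes were higher and 11 lower, where 48.6% of all ranked genes were higher. Exchange factors were split 15 and 15, GTPase-activating proteins 15 and 14, and prenylation genes 2 and 4.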

How the data were processed

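CUT&Tag libraries against H3K27ac (7) and IgG (7) were each represented by 1 deposited list of summits. The value beside each summit is a −log10 p or q deposited by the authors; which of the 2 is not stated, and the lists are not normalized to each other. The submitters' processing notes name Bowtie2, MACS2 2.2.9.1, DESeq2, HOMER and mm10, without their roles. Gene ends came from RefSeq (GRCm38.p6) and strand from its promoter table (48 of 59 Rab genes). The highest value within 1 kb of either gene end was ranked within each library, ranks became normal scores, and limma 3.58.1 (R 4.3.3, trend and robust) compared 3 DMSO with 4 pracinostat libraries over 13494 genes, with Benjamini-Hochberg adjustment. The procedure was tested on simulated normal scores without ties, with added differences larger than any seen at a Rab gene. That test does not cover tied ranks or smaller differences. Ranks keep no overall level, and short lists leave more genes unmarked. Members, gene lists and tests were chosen with earlier results of these data known. Named with values were up to 5 members per direction with the smallest p, the 2 highest and 2 lowest members of each role group, 12 listed endosome, phagosome and secretory members and, among regulators, the 2 with the smallest p per direction; other members were named for their level, paralog or missing overlap after their values were seen. Alternatives covered windows, list length, gene filter, scale, annotated starts, replicate block and left-out libraries.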

Additional observations from a re-analysis of the deposited data

Results flagged for a closer look

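In the 4 pracinostat libraries, 4 Rab genes had 1 library far from the other 3, by a gap, as a share of the range, above the 95% critical value of Dixon’s test. The test was run on 38 values. For independent values from a normal distribution, chance alone passes that limit in about 1 of 20. Percentiles are bounded and can tie, so the rate for these values is not known. Rab28 had a lowest percentile of 54.5, where the other 3 libraries lay at 79.9 to 83.7. Rab29, a GTPase of lysosomes and the Golgi, had a lowest percentile of 18.3 with the others at 64.9 to 68.1. Rab4b, of rapid recycling, had a lowest percentile of 85.2 with the others at 94.4 to 95.5. Rab44 had a highest percentile of 58.7 with the others at 23.0 to 28.9. The 3 DMSO libraries were too few for this comparison.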

How the results depend on the processing

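No Rab gene and no regulator or effector gene passed an adjusted p of 0.05 in limma under any of the 18 alternatives. The count of Rab genes at an unadjusted p under 0.05 was 1, and it became 0 with windows of 500 bp or the 30000 highest summits, 2 with windows of 2.5 kb, with the whole gene, at annotated starts or with genes marked in at least 1 list, and 3 with the replicate number as a block. Leaving out 1 library gave 0 to 3 (0 without DMSO replicate 2, 3 without DMSO replicate 1 or 3, 2 without pracinostat replicate 4). Same-numbered libraries did not deviate together (correlations −0.0544, 0.000524 and −0.0235). With so few libraries this cannot settle whether the numbers pair them. For regulators and effectors the count of 3 became 5 with genes marked in at least 1 list, and 3 to 7 with 1 library left out (6 without DMSO replicate 1, 7 and 5 without pracinostat replicates 2 and 3). Group differences moved to −9.39 (early endosome) and −8.90 (recycling) with the 30000 highest summits, to −5.83 (early endosome) with genes in all 7 lists and to 2.13 (endoplasmic reticulum and Golgi) at annotated starts; the cause was not tested. Over single left-out libraries they ran from −4.14 to −0.0829 (early endosome), −5.44 to −0.137 (phagosome), −5.35 to −0.5001 (recycling), −0.669 to 4.22 (secretory), −5.79 to 0.421 (Golgi) and 3.96 to 7.68 (other), and the median Rab difference from −0.0707 to 0.0592. Rab27a (−0.0191) and Rab31 (0.383) reversed over the whole gene. IgG lists marked 1.14 Rab genes in the mean, 0.714 with 500 bp or the 5′ end alone, 2.29 with 2.5 kb, 6.29 with the whole gene and 0.571 with a value of at least 10. With 3 and 4 libraries, standard errors of 0.346 to 0.458 limit what could be seen.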
